A study of Homo sapiens with 3 samples.

Results

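The genes described here are cytoplasmic and smooth muscle actins, myosin light chains and contractile genes of the kind driven by serum response factor: ACTB, ACTG1, ACTG2, ACTA2, MYL9, MYL6, TAGLN, CNN1, TPM1 and TPM2. They are 10 of the 19266 genes in the deposited tables, found by their Entrez identifiers, and the list was selected on fold changes against control, known from earlier work on the same libraries. Their differences from control are therefore given as a description, without p-values, and calls against control are only counted, beside the share called over all genes. All cells were KYSE510, an established esophageal squamous cell carcinoma line, and all received a lentivirus with a short hairpin RNA for 24 h and then 4 µM puromycin for 48 h. The sh1 cells carried shRNA#1 and the sh2 cells shRNA#2 against the transcript TCONS_02256997, whose potential targets the study set out to screen, and the control cells carried a scrambled hairpin. Each group is 1 sample with 3 numbered tables, treated as 3 libraries, and the labels leave unstated whether they stand for cultures, library preparations or sequencing runs. Every SD, SE and adjusted p below thus measures table-to-table spread within 1 sample per group, and that spread may be technical.

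Total expected counts were 14660821 to 14770512 in the sh1 libraries, 15759270 to 16092417 in the sh2 libraries and 15012961 to 15414591 in the control libraries. The squamous identity of the line showed in its markers. For 10 markers, among them KRT5, KRT17, TP63, SOX2 and EPCAM, the summed level was 5330 to 5430 TPM with sh1. It was 6320 to 6390 TPM with sh2 and 7280 to 7350 TPM in control. Of these 10, 3 were called higher and 6 lower with sh1, and 4 higher and 4 lower with sh2. The sum leans on KRT17, which averaged 2681.2 TPM with sh1, 3923.5 TPM with sh2 and 4247.7 TPM in control. Counts of calls in this paragraph stand beside 34.7% of all tested genes higher and 34.6% lower with sh1. With sh2 these shares were 34.2% and 34.3%. The 6 defining smooth muscle markers (MYH11, DES, LMOD1, MYOCD, KCNMB1 and SYNPO2) summed to 2.68 to 3.16 TPM with sh1, 2.84 to 3.55 TPM with sh2 and 2.64 to 3.35 TPM in control. MYOCD, the coactivator that defines smooth muscle, had 1 count over the sh1 libraries and 0 over the sh2 and the control libraries, and KCNMB1 had 2 counts with sh1, 4 with sh2 and 0 in control. DES, the gene of desmin, had 20 counts with sh1, 13 with sh2 and 2 in control, and LMOD1 had 14 with sh1, 14 with sh2 and 11 in control. Most of the sum came from SYNPO2, which averaged 2.00 TPM with sh1, 2.54 TPM with sh2 and 2.43 TPM in control. Only 2 of these 6 markers passed the filter on low counts. Of these, 0 were called higher and 1 lower with sh1, and 0 either way with sh2. The fall with sh1 was lost without sh1 library 1, 2 or 3. With no filter on low counts, 1 of the 6 was called higher with each hairpin, and 1 lower with sh1. The 9 fibroblast markers summed to 25.8 to 29.9 TPM with sh1, 29.8 to 31.0 TPM with sh2 and 26.6 to 28.8 TPM in control. Most of this sum came from COL1A1, which averaged 22.38 TPM with sh1, 27.15 TPM with sh2 and 20.68 TPM in control. FAP averaged 4.90 TPM with sh1, 2.80 TPM with sh2 and 6.63 TPM in control. These 2 were the only ones tested, and COL1A1 was called higher and FAP lower with each hairpin. With sh1, the rise was lost without sh1 library 1 and the fall without sh1 library 2. DCN and THY1 were at 0 counts with sh1, COL1A2 with sh2, and COL1A2, PDGFRB and THY1 in control. The 8 mesenchymal markers summed to 80.2 to 84.1 TPM with sh1, 62.1 to 66.5 TPM with sh2 and 72.9 to 78.0 TPM in control, with TWIST1 at 0 in all groups. This sum joins opposite changes. FN1 averaged 65.4 TPM with sh1, 47.5 TPM with sh2 and 35.9 TPM in control. SNAI2 averaged 6.08 TPM with sh1, 9.27 TPM with sh2 and 28.8 TPM in control. Of 5 tested, 3 were called higher and 1 lower with sh1, and 2 higher and 3 lower with sh2. The ranges of the squamous and of the mesenchymal sums did not overlap between any of the groups, and their part in the results was not tested. The targeted transcript was not analysed here.

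Actin is the protein of the thin filaments that shape, anchor and move a cell. Epithelial cells build them mainly from the cytoplasmic beta and gamma actins, while smooth muscle adds its own alpha and gamma isoforms. Myosin II pulls on these filaments and is switched through its regulatory light chain. Tropomyosins, transgelin and calponin bind along the filament. Many genes of this machinery carry a CArG box, the DNA element bound by serum response factor (SRF). The SRF coactivators of the MRTF family are held back by monomeric actin and are released when filaments grow, whereas the ternary complex factors (TCF) direct SRF to immediate early genes after growth factor signals.

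RefSeq promoter windows of the build GRCh38.p14 were at hand for 7 of the 10 genes, ACTG2, ACTA2, ACTG1, MYL6, TPM1, TPM2 and CNN1. The 250 bases before each annotated start were searched for the CArG box, whose reverse complement has the same form, so that both strands were covered. A box was present in 2 of the 9 windows of these genes, those of ACTG2 and ACTG1, and in 1.16% of the 35116 windows of all genes. With 1 letter off allowed, the downstream start of ACTA2 joined them, which made 3 of 9 windows against 16.8% of all. The stretches of these 3 genes are shown because they pair an actin gene that was lower with both hairpins with smooth muscle actin genes that were not. Capitals mark the boxes, each sequence reads 5′ to 3′ on the strand of its gene, and both boxes of ACTA2 have 1 letter off.
ACTG1, chr17:81512864-81512913, minus strand: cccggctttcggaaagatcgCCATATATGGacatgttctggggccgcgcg
ACTG2, chr2:73892878-73892964, plus strand: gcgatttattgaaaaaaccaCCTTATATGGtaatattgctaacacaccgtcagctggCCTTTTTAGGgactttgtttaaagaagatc
ACTA2, chr10:88952815-88952914, minus strand: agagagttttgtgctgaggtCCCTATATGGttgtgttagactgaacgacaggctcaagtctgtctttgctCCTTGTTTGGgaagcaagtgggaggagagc
The box of ACTG1 spans positions -94 to -85 from the annotated start, those of ACTG2 span -110 to -101 and -73 to -64, and a further ACTG2 match with 1 letter off, outside the stretch shown, spans -239 to -230. The boxes of ACTA2 span -121 to -112 and -71 to -62. These are matches of letters only, and no binding was measured.

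Both cytoplasmic actin genes were lower with each hairpin, and more so with sh1. Levels are given in TPM, the authors' values corrected for transcript length and depth, and fold changes come from a fit of the counts. ACTB (Entrez gene 60), which encodes beta-actin and is a common reference gene, stood at 3992, 3805 and 3936 TPM in the sh1 libraries, at 4589, 4686 and 4815 TPM in the sh2 libraries and at 5314, 5657 and 5583 TPM in the control libraries. The 3 groups did not overlap, and the log2 fold change against control was -0.45 ± 0.024 (SE, n = 3 libraries) with sh1 and -0.16 ± 0.024 with sh2. In such bulk RNA, fewer cells with a high level and less RNA in each cell cannot be told apart. ACTG1 (Entrez gene 71), the gene of cytoplasmic gamma-actin, stood at 1316, 1304 and 1303 TPM with sh1, at 1838, 1815 and 1813 TPM with sh2 and at 2722, 2667 and 2618 TPM in control. Its groups were again separate, with log2 fold changes of -0.98 ± 0.025 and -0.48 ± 0.024. Between the hairpins, both were lower with sh1 than with sh2. The log2 fold change was -0.28 ± 0.024 for ACTB and -0.50 ± 0.024 for ACTG1. The adjusted p was 1.4e-11 for ACTB and 3.01e-17 for ACTG1 (edgeR quasi-likelihood test, Benjamini-Hochberg). This comparison rests on the same libraries as the fold changes that chose the genes. The p-values between the hairpins, here and below, are thus not independent of that choice.

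Because ACTG1 was lower by more than ACTB, the mix of the cytoplasmic actins differed. The ratio of ACTB to ACTG1 in TPM was 3.03, 2.92 and 3.02 in the sh1 libraries, 2.50, 2.58 and 2.66 in the sh2 libraries and 1.95, 2.12 and 2.13 in the control libraries. Every hairpin library lay above every control library, and the sh1 libraries lay above the sh2 libraries. The coding sequences of actins are close to each other, so the split of reads between them was examined. Of the windows of 50 bases in the transcripts of ACTB, 4.54% also occurred in a transcript of another protein-coding gene (GENCODE 29), mainly of POTE genes. For ACTG1 the share was 0.468%, with ACTB as the partner, and for ACTG2 it was 0.13%, mainly with POTE genes. No window of 100 bases was shared. Read length was not known here, and windows with mismatches were not counted. With ACTB, ACTG1, ACTBL2 and the POTE genes with actin sequence summed, the log2 fold change was -0.61 ± 0.022 with sh1 and -0.27 ± 0.022 with sh2.

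**Figure D1:**
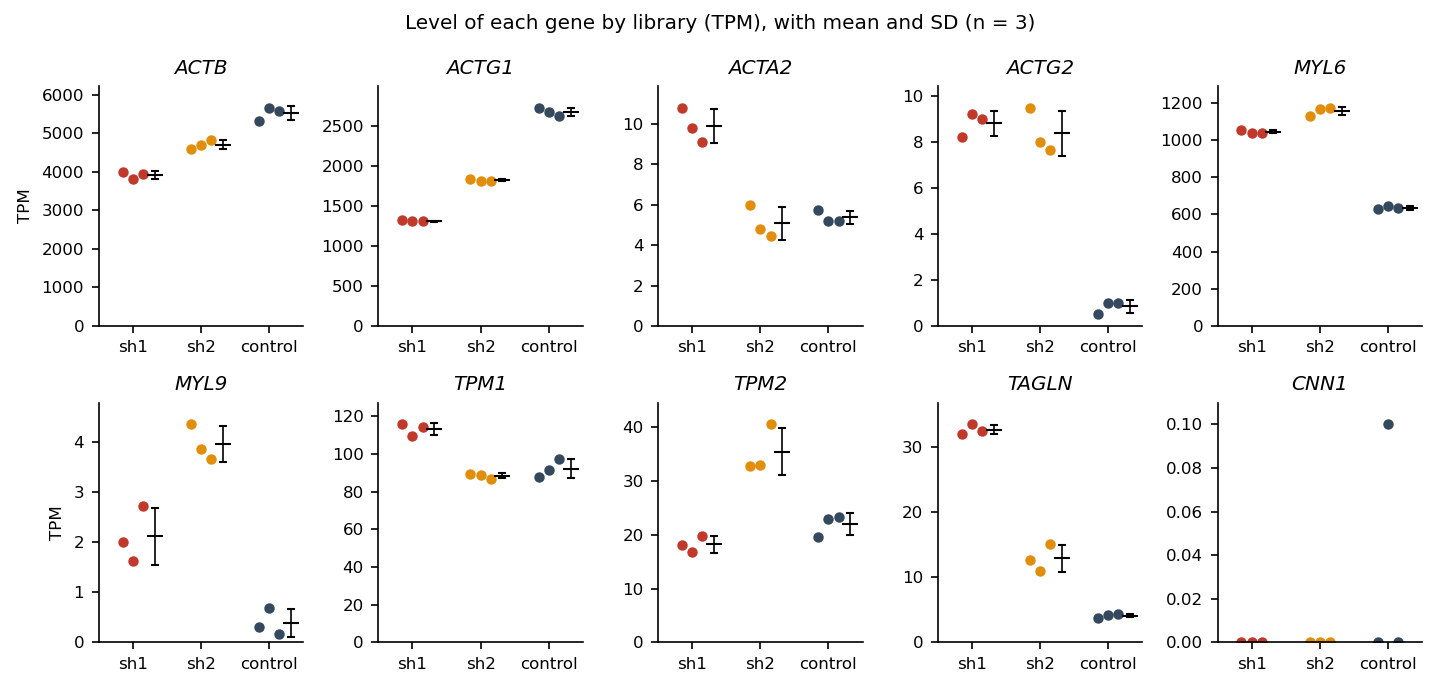
Level of each of the 10 genes in TPM (vertical axes from 0, 1 panel per gene) in the 3 libraries of sh1, sh2 and control; points are libraries and the bars beside them are the mean and SD, left out for CNN1. ACTB and ACTG1 are lowest in the sh1 libraries, ACTG2, MYL9, MYL6 and TAGLN are lowest in the control libraries, and CNN1 has a value above 0 in a single control library.

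Of the smooth muscle actin genes, which had far lower levels, ACTG2 was higher with both hairpins and ACTA2 with sh1. ACTG2 (Entrez gene 72), the gene of smooth muscle gamma-actin, had 66, 76 and 73 counts in the sh1 libraries, 84, 72 and 65 in the sh2 libraries and 4, 8 and 8 in the control libraries. The hairpin libraries did not overlap with control and overlapped with each other. Summed over libraries and scaled for depth, its counts with sh1 were 11.1 times those of control (95% interval 6.99 to 18.5, exact Clopper-Pearson) and those with sh2 10.6 times (6.67 to 17.6). These intervals cover counting error only and leave out further spread between tables. They are not a test against control, because the gene was chosen on this difference. The level was 8.82 ± 0.529 TPM with sh1, 8.39 ± 0.975 TPM with sh2 and 0.85 ± 0.268 TPM in control (SD, n = 3). ACTG2 did not pass the test between the hairpins (log2 fold change 0.07 ± 0.151, adjusted p = 0.702, edgeR quasi-likelihood test, Benjamini-Hochberg), and the counts with sh1 were 1.05 times those with sh2 (95% counting interval 0.865 to 1.27).

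ACTA2 (Entrez gene 59), the gene of smooth muscle alpha-actin and a marker of myofibroblasts, had 97, 92 and 93 counts with sh1, 65, 59 and 49 with sh2 and 64, 56 and 56 in control. The sh1 libraries lay above all others, while the sh2 and control libraries overlapped. The log2 fold change was 0.72 ± 0.14 with sh1, and with sh2 it was -0.09 ± 0.154. ACTA2 was higher with sh1 than with sh2 by 0.81 ± 0.141 on the log2 scale (adjusted p = 7.88e-06, edgeR quasi-likelihood test, Benjamini-Hochberg). ACTA2 and ACTG2 together made up 0.357% of the TPM of the 4 actin genes with sh1, 0.206% with sh2 and 0.076% in control. Within that small share, ACTA2 was 1.12 times ACTG2 in TPM with sh1, 0.607 times with sh2 and 6.33 times in control.

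The myosin light chain genes were higher with both hairpins. MYL6 (Entrez gene 4637), which encodes the essential light chain of nonmuscle and smooth muscle myosin, stood at 1056, 1040 and 1040 TPM with sh1, at 1129, 1167 and 1173 TPM with sh2 and at 627, 646 and 632 TPM in control. The 3 groups were separate, with log2 fold changes of 0.76 ± 0.0295 and 0.94 ± 0.0292 against control. MYL6 was lower with sh1 than with sh2 by a log2 fold change of -0.18 ± 0.028 (adjusted p = 1.93e-06, edgeR quasi-likelihood test, Benjamini-Hochberg). MYL9 (Entrez gene 10398), a regulatory light chain typical of smooth muscle, had 14, 12 and 20 counts with sh1, 32, 31 and 29 with sh2 and 2, 5 and 1 in control. Its 3 groups did not overlap either, although the control level rests on 8 counts in all. Scaled for depth, the summed counts were 5.92 times control with sh1 (95% counting interval 2.77 to 14.5) and 11.0 times with sh2 (5.35 to 26.2). MYL9 was likewise chosen on this difference, so these intervals are no test either. MYL9 was lower with sh1 than with sh2, with a log2 fold change of -0.89 ± 0.272 (adjusted p = 0.00493, edgeR quasi-likelihood test, Benjamini-Hochberg).

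The other light chain genes were mixed. Of 5 tested, 3 rose and 2 fell with sh1, beside 34.7% and 34.6% of all tested genes. With sh2, 2 rose and 1 fell, beside 34.2% and 34.3% of all. Without sh1 library 2, the 3 rises became 1, and with no filter on low counts the 2 rises with sh2 became 4. MYL12B, with the highest level of the other light chain genes, averaged 2592 TPM with sh1, 3168 TPM with sh2 and 2522 TPM in control, and rose by 0.09 ± 0.026 and 0.40 ± 0.026 on the log2 scale. Its close relative MYL12A fell, with log2 fold changes of -0.58 ± 0.029 with sh1 and -0.13 ± 0.029 with sh2. MYL6B, an essential light chain encoded beside MYL6, rose by 0.31 ± 0.065 and 0.59 ± 0.061. MYL12A and MYL12B are near-identical neighbours, so the split of their reads is uncertain. MYL6B and MYL12A were picked among genes called the same way with both hairpins, so p-values are not given here.

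TAGLN and CNN1 encode the actin-binding proteins transgelin and calponin, both early markers of smooth muscle. TAGLN (Entrez gene 6876) had 225, 240 and 229 counts with sh1, 98, 87 and 116 with sh2 and 30, 34 and 32 in control. The 3 groups were separate, and the level was 32.6 ± 0.733 TPM with sh1, 12.9 ± 2.07 TPM with sh2 and 4.10 ± 0.277 TPM in control (SD, n = 3). The log2 fold changes against control were 2.89 ± 0.132 and 1.58 ± 0.157, and TAGLN was higher with sh1 than with sh2 by 1.31 ± 0.104 (adjusted p = 2.15e-12, edgeR quasi-likelihood test, Benjamini-Hochberg). CNN1 (Entrez gene 1264) had 0 counts in every hairpin library and 1 count in a single control library. Its 0 counts allow up to 0.0679 CPM over the sh1 libraries and 0.0627 CPM over the sh2 libraries (3 counts per group, counting error only), so no fold change is given.

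The tropomyosin genes, whose products stabilise actin filaments and gate myosin, differed between the hairpins. TPM2 (Entrez gene 7169) stood at 18.1, 16.8 and 19.8 TPM with sh1, at 32.9, 33.0 and 40.5 TPM with sh2 and at 19.6, 22.9 and 23.4 TPM in control. The sh2 libraries lay above all others, and the sh1 libraries overlapped with control. The log2 fold change was -0.19 ± 0.112 with sh1 and 0.83 ± 0.095 with sh2. TPM2 was lower with sh1 than with sh2 by a log2 fold change of -1.02 ± 0.099 (adjusted p = 1.65e-10, edgeR quasi-likelihood test, Benjamini-Hochberg).

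TPM1 (Entrez gene 7168) had 1302, 1263 and 1289 counts with sh1, 1008, 1002 and 942 with sh2 and 1023, 1044 and 1095 in control. Scaled for depth, the groups were separate, with log2 fold changes of 0.33 ± 0.039 with sh1 and -0.16 ± 0.041 with sh2. Per length the picture differed: the level was 113 ± 3.32 TPM with sh1, 88.4 ± 1.36 TPM with sh2 and 92.2 ± 4.93 TPM in control, and the sh2 and control libraries overlapped. On log2(FPKM + 1), where FPKM is the authors' other value corrected for length, the change with sh2 was 0.0042.

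The tables also give the mean length of a gene's transcripts, weighted by their estimated shares, and for TPM1 this measure set the sh2 libraries apart. It was 1871, 1879 and 1858 bases in the sh1 libraries, 1703, 1673 and 1655 bases in the sh2 libraries and 1879, 1907 and 1875 bases in the control libraries. The mean was 11.1% shorter with sh2 than in control, and the sh1 libraries overlapped with control. Of 6805 genes with several transcripts and at least 50 counts in every library, 0.999% were separate from control with sh2 and at least 10% apart in the mean, and 1.06% with sh1. For TPM2 the mean length was 1227 ± 17.1 bases with sh1, 1262 ± 15.4 bases with sh2 and 1203 ± 3.8 bases in control (SD, n = 3), without overlap between either hairpin and control. That such lengths were separate at all was common, at 19.6% of these genes with sh1 and 19.7% with sh2. ACTA2 and TAGLN were outside this set, with minimum counts of 49 and 30. The ACTA2 mean length was 1571 ± 94.7 bases with sh1 and 1800 ± 8.68 bases in control, without overlap. For TAGLN it was 1180 ± 2.55 bases with sh1, 1187 ± 2.09 bases with sh2 and 1302 ± 65.8 bases in control, with control separate from both. This measure was looked at after the files had been seen, has no test here, and depends on how the authors' program assigned reads to transcripts.

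**Figure D2:**
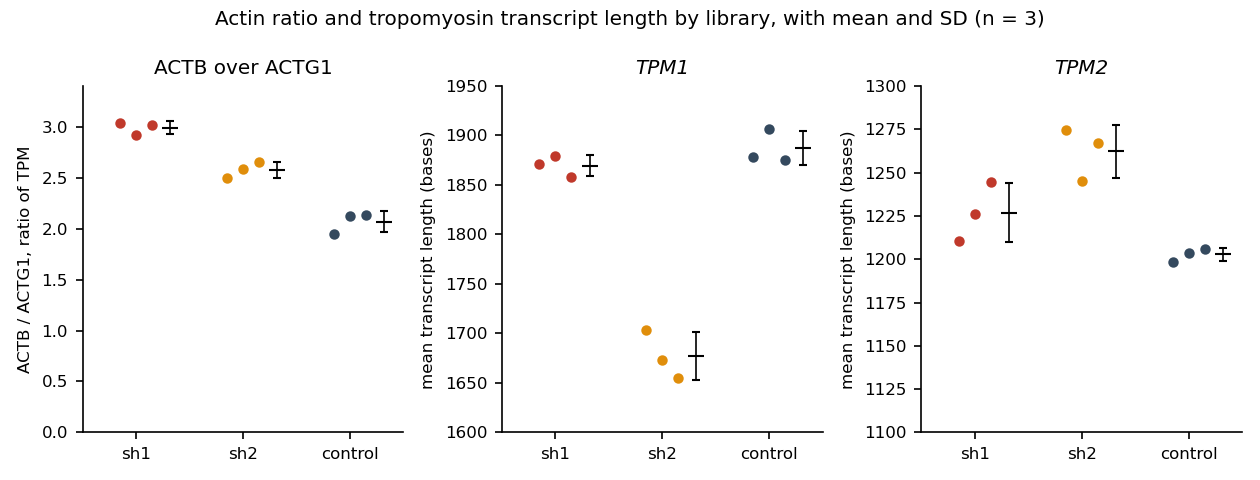
Ratio of ACTB to ACTG1 in TPM (left, axis from 0) and mean transcript length in bases of TPM1 (middle) and TPM2 (right), both on axes that do not start at 0, in the libraries of sh1, sh2 and control; points are libraries and the bars beside them are the mean and SD. The TPM1 lengths of the sh2 libraries, 1655 to 1703 bases, lie below those of all other libraries.

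The order of levels in TPM was the same for the upper 4 genes in every group, ACTB, ACTG1, MYL6 and TPM1. Below them it was TAGLN, TPM2, ACTA2, ACTG2 and MYL9 with sh1, and TPM2, TAGLN, ACTG2, ACTA2 and MYL9 with sh2. In control it was TPM2, ACTA2, TAGLN, ACTG2 and MYL9, and CNN1 came last throughout. Neighbours in the order whose libraries overlapped were ACTA2 and ACTG2 with sh1, and ACTG2 and MYL9 in control. Among the leading genes, ACTG1 was 1.25 times MYL6 with sh1, 1.58 times with sh2 and 4.20 times in control.

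Counted over the list, 9 of the 10 genes passed the filter on low counts and CNN1 did not. ACTG2 and MYL9 passed only through the hairpin libraries, since no control library reached the minimum of 0.66 CPM for either. Against control, 6 were called higher (ACTG2, ACTA2, MYL9, MYL6, TAGLN and TPM1) and 2 lower (ACTB and ACTG1) with sh1, beside 34.7% and 34.6% of all 13580 tested genes (69.3% in either direction). With sh2, 5 were called higher and 3 lower, beside 34.2% and 34.3% of all (68.5% in either direction). At least 2-fold changes were called for 3 genes with each hairpin, ACTG2, MYL9 and TAGLN, beside 9.15% of all genes with sh1 and 7.75% with sh2. Called the same way with both hairpins were 6 genes, beside 39.6% of all, and in opposite directions 1, TPM1, beside 12.7% of all. Nothing is read from these counts, because the list was drawn up with those differences known. Between the hairpins, 3 were called higher with sh1 and 5 lower, beside 34.2% and 35.6% of all (69.8% in either direction), so that the 8 called of 9 stand against a share that is itself large. At least 2-fold apart were TAGLN and TPM2, beside 8.28% of all. The comparisons against control share the control libraries.

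**Figure D3:**
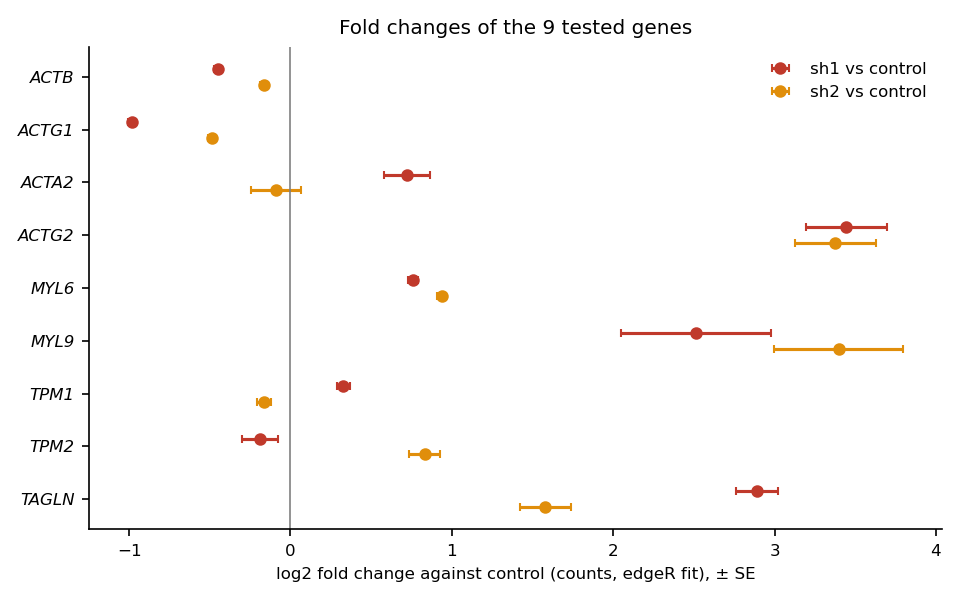
Log2 fold change of the 9 tested genes with sh1 and sh2 against control (horizontal axis, fit of the counts; points are estimates and bars are SE). ACTB and ACTG1 lie below 0 with both hairpins, ACTG2, MYL9, MYL6 and TAGLN lie above 0 with both, and ACTA2, TPM1 and TPM2 differ between the hairpins.

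Other genes of the same machinery were described through lists taken from textbook knowledge, drawn up with earlier results of these data known. Each count of calls is to be read beside all tested genes, of which 34.7% rose and 34.6% fell with sh1, and 34.2% rose and 34.3% fell with sh2. Among 28 tested targets of MRTF and SRF outside the list, 23 fell and 3 rose with sh1, and 17 fell and 6 rose with sh2. Their median log2 fold changes were -0.47 and -0.18, beside 0.01 and 0.00 over all tested genes. CCN2, a matricellular protein that is also a YAP target, averaged 9.04 TPM with sh1, 25.8 TPM with sh2 and 278 TPM in control and had log2 fold changes of -4.89 ± 0.056 and -3.36 ± 0.045. FLNA, the filament crosslinker filamin A with the highest level of the list, fell by 0.10 and 0.31 on the log2 scale with sh1 and sh2. ITGA5, an integrin subunit, went the other way and rose by 1.62 ± 0.041 and 1.57 ± 0.041. Since CCN2 and ITGA5 were picked among genes called the same way with both hairpins, p-values are not given here. In the promoter windows, 13 of 67 of this list held a CArG box.

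All 8 immediate early targets of TCF and SRF fell with both hairpins, with medians of -2.32 and -2.25. EGR1 and FOSB, immediate early transcription factors, had the largest mean changes. EGR1 averaged 29.3 TPM with sh1, 33.8 TPM with sh2 and 296 TPM in control, with log2 fold changes of -3.29 ± 0.05 and -3.06 ± 0.048. JUNB, the most abundant, averaged 193 TPM with sh1, 286 TPM with sh2 and 630 TPM in control. SRF itself averaged 43.7 TPM with sh1, 52.0 TPM with sh2 and 76.5 TPM in control, with log2 fold changes of -0.78 ± 0.042 and -0.49 ± 0.04. ELK4, a TCF, fell by 0.24 and 0.43 on the log2 scale. Among the 7 tested genes of SRF and its cofactors, 4 rose and 2 fell with sh1, and 2 rose and 3 fell with sh2. SRF and ELK4 were picked among genes called the same way with both hairpins, so no p-value is given for them.

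Other smooth muscle contractile genes did not move together. Of 8 tested, 1 rose and 3 fell with sh1, and 3 rose and 3 fell with sh2. MYLK, the kinase that phosphorylates the regulatory light chain, fell by 0.76 and 1.27 on the log2 scale, CALD1, encoding caldesmon, fell by 0.37 and 0.20, and SYNM, encoding the intermediate filament protein synemin, rose by 0.66 ± 0.039 and 0.50 ± 0.039. MYH11, the smooth muscle myosin heavy chain, averaged 0.197 TPM with sh1, 0.177 TPM with sh2 and 0.313 TPM in control and did not pass the test with either hairpin. Of 5 other tropomyosin, calponin and transgelin genes, 2 rose and 3 fell with sh1, and 2 rose and 1 fell with sh2. That last fall was lost without sh2 library 2 or without control library 1, which left 0. TPM3 rose by 0.53 ± 0.026 and 0.65 ± 0.026, and TAGLN2, the abundant transgelin of epithelial cells, by 0.52 ± 0.026 and 0.31 ± 0.026.

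Of 12 genes of the Arp2/3 complex, which branches filaments, and its activators, 5 rose and 7 fell with sh1, and 6 rose and 4 fell with sh2, beside 69.3% of all genes called in either direction with sh1 and 68.5% with sh2. Without sh1 library 3, the 5 rises became 3. Of the 8 subunits of the chaperonin that folds actin, 6 rose and 1 fell with sh1, and 8 rose with sh2. Their median log2 fold changes were 0.13 and 0.41. All 8 were called lower with sh1 than with sh2, beside 35.6% of all tested genes. The 6 rises with sh1 became 4 without sh1 library 2 and 5 without sh1 library 3. The 1 fall became 2 without sh1 library 1, sh2 library 1 or sh2 library 3. It also became 2 with DESeq2 size factors, no filter, a block on table number or only the groups compared. CCT3 rose most on average, by 0.46 ± 0.0267 and 0.75 ± 0.0264. Of 11 crosslinkers and membrane linkers, 5 rose and 4 fell with sh1, and 5 rose and 5 fell with sh2, and LCP1, the bundling protein plastin of blood cells and many tumours, rose by 1.32 ± 0.09 and 2.23 ± 0.078. Of 4 myosin heavy chain genes, 1 rose and 1 fell with sh1, and 2 rose and 1 fell with sh2. The sh1 counts became 2 and 0 without sh1 library 2 or control library 2, the fall with sh1 was lost without control library 3, and the falls with sh2 became 2 without sh2 library 1.

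ACTB is used as a loading reference, so its change was set beside other such genes. Of 13 reference genes other than actin, 10 rose and 2 fell with sh1, and 9 rose and 1 fell with sh2, beside 34.7% of all genes higher with sh1 and 34.2% with sh2. Their median log2 fold changes were 0.21 and 0.29. The 2 falls with sh1 became 1 without sh1 library 1, sh1 library 3, control library 2 or control library 3. GAPDH rose by 0.17 ± 0.024 and 0.46 ± 0.024, in the direction opposite to ACTB. PGK1 rose by 0.48 ± 0.026 and 0.70 ± 0.026, and B2M by 0.21 ± 0.029 and 0.77 ± 0.029. Since PGK1 and B2M were picked among genes called the same way with both hairpins, p-values are not given here.

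**Figure D4:**
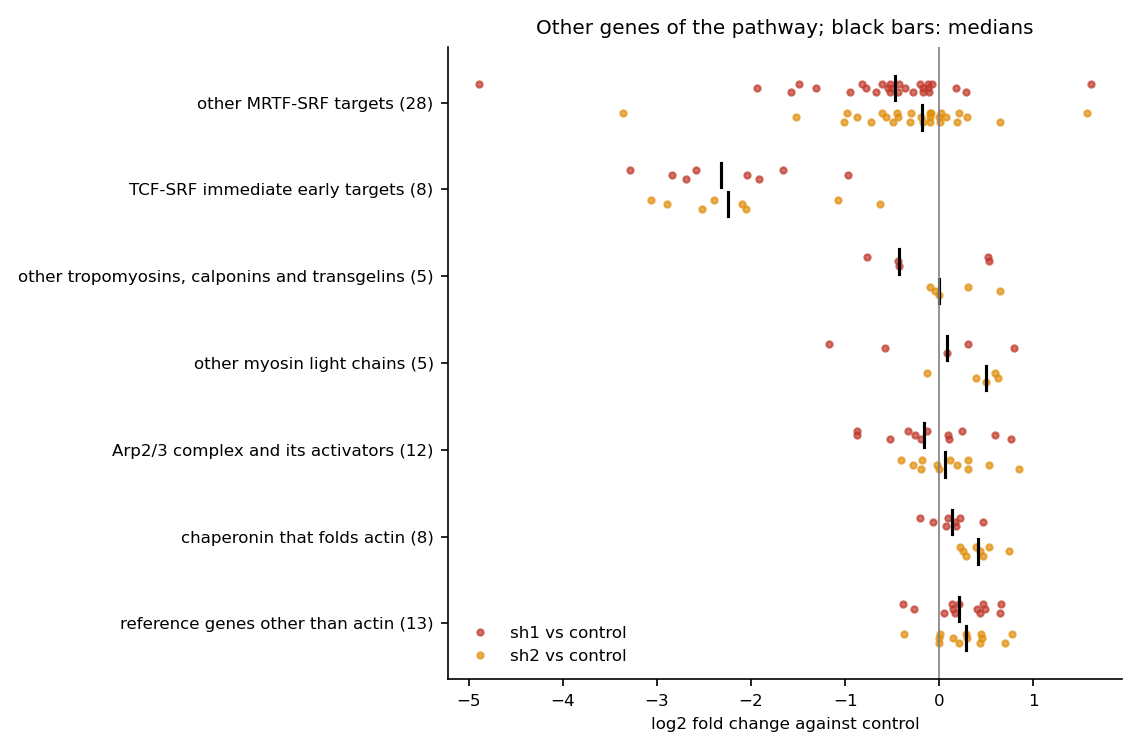
Log2 fold changes against control (horizontal axis) of the tested genes of 7 lists (rows, number of genes in brackets) with sh1 and sh2; points are genes and black bars are medians. The immediate early targets lie below 0 throughout, and most other MRTF and SRF targets lie below 0.

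The patterns of ACTB and ACTG2 were compared with those of all tested genes outside the list, by the Euclidean distance over the 9 libraries of log2 CPM centred on the control mean. Nearest to ACTB were RNF126, NFE2L1 and ANKS1A, at distances of 0.0784 to 0.0833. Nearest to ACTG2 were CEACAM6, MT2A and VTCN1, at larger distances of 0.701, 1.31 and 1.75. MT2A had log2 fold changes of 2.89 with sh1 and 2.60 with sh2, beside 3.44 and 3.38 for ACTG2.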

How the data were processed

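Total RNA of KYSE510 cells was made into libraries by BGISEQ-500 protocols, per the labels. Tools named in the submitters' processing notes, without roles, were RSEM 1.2.12, HISAT2 2.0.4, DESeq2 1.4.5 and Bowtie2 2.2.5, with build hg19. Per the file headers, each of the 9 deposited tables holds an expected count (an estimate that need not be whole), a TPM, an FPKM and a mean transcript length per gene. A further FPKM table of the whole series was not used. Symbols from RefSeq (GRCh38.p14, used for names only) matched 19223 of 19266 identifiers. No source used here says whether counting was stranded.

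Expected counts were rounded and filtered by filterByExpr (13580 genes kept), and TMM-scaled libraries entered a single quasi-likelihood model in edgeR 4.0.16 (R 4.3.3) with a term for group alone. CPM are counts scaled to library size. The threshold was an adjusted p of 0.05 (Benjamini-Hochberg over all tested genes), and the SE is the log2 fold change divided by the root of F. The script was tested on simulated counts. Tables of a group differed by more than counting noise (chi-square per degree of freedom 1.49 to 2.03), so none was merged for the fit. Counts summed over tables serve only for description and for the counting intervals.

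The genes, lists and tests were chosen with earlier results of these data known, and 1 list is not reported here. Outside the 10 genes, the rule named, per list, the 2 genes with the largest mean change among those called the same way with both hairpins and the gene with the highest TPM, and the 3 genes nearest to ACTB and to ACTG2. The picks ARPC1A, ACTR3, CTTN, MYH14, MYH9, ANLN, TCP1, ZEB2 and POTEF are not described above. KRT5, SOX2 and EPCAM were named outside the rule. MYH11 and the markers at or near 0 were named after their values were seen, as were SOX2 and EPCAM. Alternatives were other scalings, no filter, only the groups compared, a block on table number, DESeq2 1.42.0, limma 3.58.1 on log2 FPKM, summed actins and each library left out.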

Additional observations from a re-analysis of the deposited data

Results flagged for a closer look

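TPM1 was flagged because its differences from control had opposite signs and the difference between the hairpins was itself tested. Its log2 fold change was 0.33 ± 0.039 with sh1 and -0.16 ± 0.041 with sh2, and TPM1 was higher with sh1 than with sh2 by 0.49 ± 0.04 (adjusted p = 3.55e-12, edgeR quasi-likelihood test, Benjamini-Hochberg, higher in 3 of 3 libraries). The mean transcript length of TPM1 moved with sh2 as well, at 1677 ± 24.5 bases against 1887 ± 17.3 bases in control (SD, n = 3), and its part in the count difference was not tested beyond the values per length.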

How the results depend on the processing

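Across the alternatives, 457 of 465 recomputed fold changes of the listed genes kept their direction and their side of the threshold. With 1 library left out in turn, ACTA2 with sh2 ranged from -0.18 to 0.0021 and ACTG2 between the hairpins from -0.003 to 0.17, with the sign turned without sh2 library 3, and neither passed the test in any of these fits. With ACTA2 and ACTG2 summed, the log2 fold change was 0.94 with sh2 and 0.44 between the hairpins, since the sum holds both genes. On log2 FPKM, TPM1 with sh2 was 0.0042 (pseudocount 1) and 0.0043 (pseudocount 0.1), and TPM2 with sh1 passed at -0.20 and -0.22; the cause was not tested. The counts of listed genes called were 8, 8 and 8 for sh1 against control, sh2 against control and sh1 against sh2, and stayed at 8 when any 1 library was left out. With log2 FPKM they were 8, 6 and 7: MYL9 was below the minimum mean FPKM of 1 and not tested, TPM2 with sh1 was gained and TPM1 with sh2 was lost. Over all genes, leaving out a library gave 9003 to 9532, 8867 to 9300 and 8983 to 9527 calls for these 3 comparisons.

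The table numbers are only names in the labels, and the correlation of deviations between tables of the same number was -0.072 to 0.075. With the table number as a replicate block, the calls were 9431, 9295 and 9501, against 9409, 9298 and 9477 without it. The order of levels was the same in FPKM. Without a filter on low counts, 2 smooth muscle contractile genes rose with sh1 in place of 1. With DESeq2, 3 genes of the Arp2/3 list rose with sh1. Depth limits CNN1, MYL9 and ACTG2, whose control levels rest on 1, 8 and 20 counts.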
